A study of Homo sapiens with 8 samples.

Results

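Argonaute 2 (Ago2) binding was recorded here inside the coding sequence of mRNAs whose 3' UTR carried no Ago2 peak. The measurements came from 293S, a line derived from HEK293 human embryonic kidney cells, either untreated (control) or given 20 µg/mL emetine for 60 minutes. There was 1 culture per treatment, divided into 3 aliquots for crosslinking and immunoprecipitation of Ago2 (CLIP), each with an antibody of another manufacturer (Abnova, Santa Cruz or Sigma), and 1 aliquot for RNA-seq. The 8 libraries therefore comprise 3 CLIP libraries and 1 RNA library per treatment. P-values over the CLIP libraries measure the spread between aliquots and antibodies and not between cultures.

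The members were chosen by measured values, namely by which peaks the authors' deposited table lists. A peak is a member if the table places it in coding sequence and lists no 3' UTR peak for the same RefSeq transcript, with zinc finger genes named ZNF and a number left out. By this rule 3118 of 22506 peaks (13.9%) are members. They make up 41.7% of the 7476 coding peaks and lie in 2030 transcripts of 1934 genes. The other coding peaks comprise 4177 peaks in transcripts with a 3' UTR peak and 181 peaks in ZNF genes, 62 of which lie in transcripts with no 3' UTR peak. Since the absence of 3' UTR peaks is what the rule asks for, that absence is not a result.

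MicroRNAs guide Argonaute proteins to target mRNAs through pairing of the seed, bases 2 to 8 of the microRNA. Sites in 3' UTRs are known to repress most strongly, and sites in coding sequence are also bound by Argonaute, although elongating ribosomes pass over them. Emetine stops translation elongation by binding the small ribosomal subunit, so ribosomes are held on the coding sequence while the 3' UTR stays free of them.

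The deposited table names no microRNA for a peak. For orientation, the 5 lines below give microRNAs whose families are known from cultured human cells, with the seed in capitals. They are shown since the seed sites counted in the member transcripts further on are those of these sequences, which were taken from RefSeq (table build GRCh38.p14).
hsa-miR-17-5p: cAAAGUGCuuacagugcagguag
hsa-miR-92a-3p: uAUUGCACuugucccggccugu
hsa-miR-19b-3p: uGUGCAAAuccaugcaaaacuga
hsa-miR-16-5p: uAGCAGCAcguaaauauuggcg
hsa-let-7a-5p: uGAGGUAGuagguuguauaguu
The 5 seeds differ from each other, so no 2 of these microRNAs share a seed family.

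Whole read numbers per library were worked back from the deposited values for 3058 of the members, and 60 members had no unique solution and enter no count below. Libraries are numbered by falling value of 1 read (the factor that scales a read to the authors' normalised unit), and which antibody made which library was not assigned. In emetine libraries 1, 2 and 3 a read counted for 8.86, 3.00 and 2.81 units, and in control libraries 1, 2 and 3 for 8.0, 2.82 and 2.43 units. Library 1 stood apart in both treatments. It had the fewest reads in peaks (40826 with emetine and 39693 in control, against 96660 to 117098 in the others). Peaks in noncoding exons held 45.6% (emetine) and 43.1% (control) of its reads. This share was 6.36% and 6.45% in library 2, and 13.8% and 13.35% in library 3. Of 13 markers of cells other than kidney line cells, 0 had a peak.

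Member peaks were thinly covered. A member had between 11 and 612 reads over the 6 CLIP libraries, with a median of 14, while the other coding peaks had a median of 15. At least 30 reads were found for 169 members. Reads in at least 3 libraries were present at 910 members (29.8%) compared with 38.6% of the other coding peaks, and 65 members had reads in all 6 libraries. More than 80% of the reads came from a single library at 1920 members (62.8%), compared with 54.7% of the other coding peaks. No control read was present at 870 members (28.5%), against 22.6% of the other coding peaks and 17.7% of all peaks. No emetine read was present at 730 members (23.9%), against 20.3% and 20.1%. These shares belong to peaks that entered the table with at least 11 reads in all, so a peak without reads in one treatment had to have them in the other.

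The peaks were short and mostly single. Their median width, from the listed start to the listed end, was 26 nt, with a range from 2 to 112 nt. A single member peak was listed for 1421 transcripts, 2 for 381 and 3 or more for 228, of which 54 had 5 or more. Of 1088 pairs of neighbouring members on a transcript, 221 (20.3%) overlapped or touched, and 173 members had the same 6 read numbers as an earlier peak of their transcript. Sums over a gene's peaks can therefore count some reads more than once. In addition, 136 member transcripts carried 188 peaks in their 5' UTR.

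The rule works on transcripts, and some genes had a 3' UTR peak on another of their transcripts. This held for 617 members (19.8%) in 347 genes. DICER1, which encodes the enzyme that cuts microRNA precursors, is the main example among the genes with most reads, with 19 member peaks on 1 transcript and 21 peaks in the 3' UTR of its other transcripts. INSIG1, which holds the sterol sensor SCAP in the endoplasmic reticulum, had 10 member peaks and 19 such 3' UTR peaks. The splicing factor gene SRSF1 had 10. If membership is set by gene symbol in place of transcript, 2501 peaks remain. No member was listed at the same position on more than 1 transcript, so each peak stands on 1 transcript only. Whether other transcripts of the gene contain the same bases was not examined.

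Transcripts with coding peaks alone had shorter 3' UTRs and coding sequences of like length, compared with transcripts that had peaks in both. Lengths were matched for 1976 of the 2030 member transcripts (97.3%) through the RefSeq table of GENCODE 29. The median 3' UTR was 704 nt in members, 1580 nt in transcripts with other coding peaks, 1116 nt in those with exactly 1 3' UTR peak and 1254 nt in all mRNAs of the table. A 3' UTR under 500 nt was annotated for 41.2% of member transcripts and 18.0% of the transcripts with other coding peaks, and one over 3000 nt for 11.7% and 25.8%. The median coding length was 1674 nt and 1692 nt. A longer 3' UTR offers more room for a peak, so the difference is described here without a test. For transcripts of genes without a 3' UTR peak on any transcript the median was 634 nt. Lengths, and the seed sites below, are those of the transcript on which a peak was listed. Other transcripts of the gene may differ. Some genes named below had little annotated 3' UTR for a peak, with 0 nt for HIST1H1C, 48 nt for RPS14 and 89 nt for IRS4. Others had more, with 1163 nt for NKX3-2 and 1773 nt for B3GALT6.

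**Figure D1:**
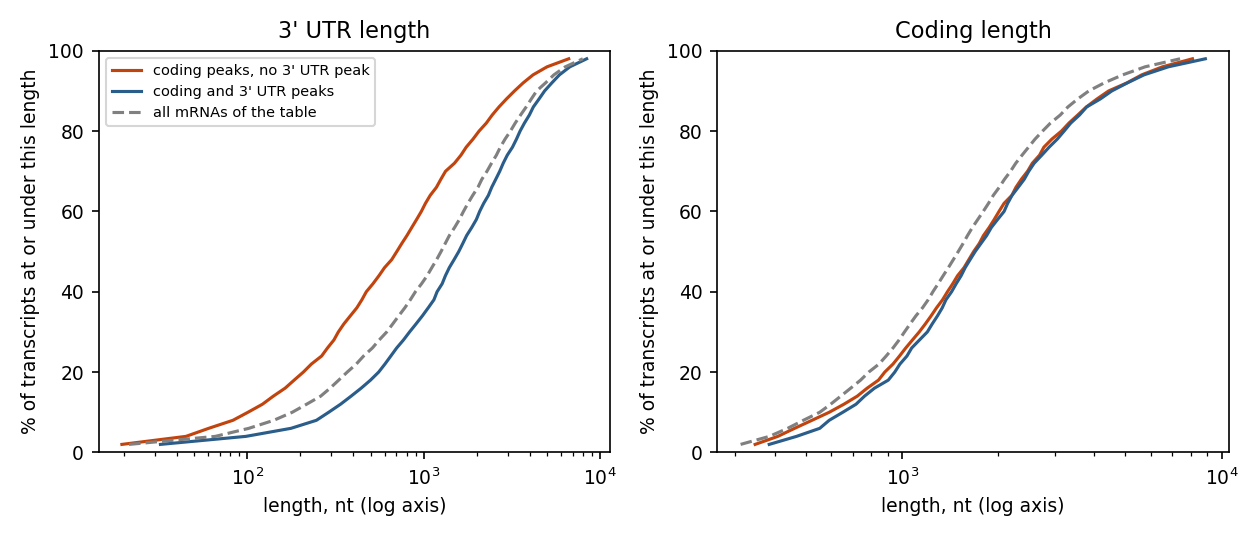
Cumulative distributions of annotated 3' UTR length (left) and coding length (right) in nt on a log axis, as the percent of transcripts at or under each length, for transcripts with coding peaks and no 3' UTR peak, with both, and for all mRNAs of the table. The curve of the members lies to the left for 3' UTRs (median 704 nt against 1580 nt) and near that of the other coding transcripts for coding length (1674 nt against 1692 nt).

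Seed sites in 3' UTRs were present in a smaller share of member transcripts. A site was counted where the annotated transcript holds the 7 bases complementary to a seed, on the sense strand alone: GCACTTT for miR-17-5p, GTGCAAT for miR-92a-3p, TTTGCAC for miR-19b-3p, TGCTGCT for miR-16-5p and CTACCTC for let-7a-5p. The sites of miR-17-5p and miR-19b-3p can overlap, since GCACTTT begins with the letters that end TTTGCAC, and each was counted on its own. A 3' UTR site for miR-17-5p was present in 17.9% of member transcripts, 29.9% of transcripts with other coding peaks and 25.2% of all mRNAs of the table. For miR-92a-3p the shares were 8.60%, 16.0% and 13.1%. For miR-19b-3p they were 10.8%, 21.9% and 17.5%. Shares were 17.8%, 29.7% and 25.3% for miR-16-5p, and 6.98%, 11.4% and 10.2% for let-7a-5p. In transcripts with exactly 1 3' UTR peak the shares were 20.5%, 10.9%, 14.7%, 22.0% and 9.78% in the same order. The classes are defined by their 3' UTR peaks and differ in 3' UTR length, so these shares are not independent of the rule.

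Per kilobase of 3' UTR the classes lay closer. Members were lower than transcripts with other coding peaks for all 5 microRNAs, with the widest gap for miR-19b-3p. Sites of miR-17-5p numbered 0.188 per kb in members and 0.192 per kb in transcripts with other coding peaks. The pairs of values were 0.079 and 0.086 for miR-92a-3p, 0.10 and 0.124 for miR-19b-3p, 0.201 and 0.204 for miR-16-5p, and 0.059 and 0.063 for let-7a-5p. Transcripts with exactly 1 3' UTR peak had 0.171, 0.071, 0.096, 0.175 and 0.060 per kb in the same order. These were lower than the member values for all but let-7a-5p. All mRNAs of the table had 0.187, 0.081, 0.113, 0.199 and 0.062 per kb, lower than members for miR-17-5p and miR-16-5p alone. In coding sequence, the shares with a site are given for members and then for transcripts with other coding peaks. They were 12.4% and 13.5% for miR-17-5p, 9.77% and 8.26% for miR-92a-3p, and 12.1% and 12.8% for miR-19b-3p. For miR-16-5p they were 40.1% and 41.1%, and for let-7a-5p 17.0% and 18.7%. These counts describe whole annotated transcripts and not the peaks, whose sequences were not read because no genome of the build of the table (hg19) was used here.

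The members took a similar share of the coding reads in every library. Member peaks held 2885, 14018 and 11605 reads in emetine libraries 1, 2 and 3, and 2820, 12277 and 9565 reads in control libraries 1, 2 and 3. As a share of the reads in all coding peaks this was 41.8%, 39.8% and 42.5% with emetine and 41.1%, 39.0% and 39.0% in control. Emetine libraries 1 and 3 lay above every control library, and emetine library 2 lay between control libraries. The means were 41.4% ± 1.42 (SD, n = 3) and 39.7% ± 1.26 (SD, n = 3), a difference of 1.66 percentage points (exact permutation test, two-sided, p = 0.2, adjusted over 3 tests p = 0.3). With 3 libraries a side the smallest p this test can give is 0.1. Within library 1, 2 and 3 the share was higher with emetine by 0.631, 0.783 and 3.56 percentage points. Leaving out emetine library 3 gave 1.08 percentage points.

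As a share of the reads in all peaks the members held 7.07%, 13.4% and 12.01% with emetine and 7.11%, 10.5% and 9.29% in control. Library 1 of each treatment had the lowest share. The means were 10.8% ± 3.34 (SD, n = 3) and 8.96% ± 1.71 (SD, n = 3), with a difference of 1.88 percentage points (exact permutation test, two-sided, p = 0.5, adjusted p = 0.5). Within libraries 2 and 3 the difference was 2.95 and 2.72 percentage points, and in library 1 it was -0.038. Without emetine library 1 the difference was 3.76 percentage points, without emetine library 2 it was 0.577, without emetine library 3 it was 1.29, and without control library 1 it was 0.948.

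The mean level of a member relative to the other coding peaks was also compared within each library, on the scale log2(reads × value of 1 read + 1). The difference, members minus other coding peaks, was -0.15, -0.09 and 0.01 in emetine libraries 1, 2 and 3, and -0.16, -0.14 and -0.19 in control libraries 1, 2 and 3. Members thus lay below the other coding peaks in 5 of 6 libraries. The 3 emetine values had a mean of -0.08 ± 0.08 (SD, n = 3) and the control values of -0.16 ± 0.02 (SD, n = 3), and the difference of 0.08 did not pass (exact permutation test, two-sided, p = 0.2, adjusted p = 0.3). It was 0.04 without emetine library 3 and 0.03 with membership by gene symbol. It was 0.27 when peaks seen in fewer than 3 libraries were left out (exact permutation test, two-sided, p = 0.1, the smallest it can give).

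**Figure D2:**
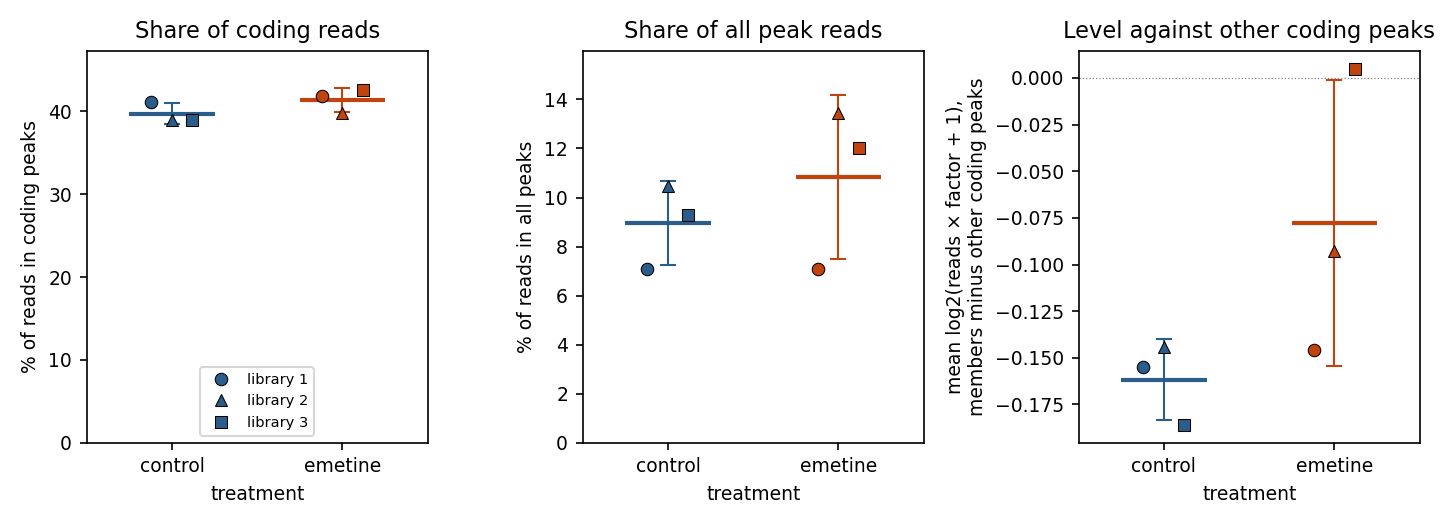
Member reads as a percent of reads in coding peaks (left) and in all peaks (middle), and the mean log2 level of members minus that of the other coding peaks (right), by treatment; markers are libraries 1, 2 and 3, lines the means and bars ± 1 SD. Emetine and control libraries overlap in all 3 panels, and library 1 has the lowest share of all peak reads in both treatments.

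No member peak passed the test for a difference with emetine. In limma on log2(reads × value of 1 read + 1) over all 22382 peaks with recovered reads, 0 peaks were called at an adjusted p under 0.05 (percent called 0), members included, and the smallest adjusted p of a member was 0.786. An unadjusted p under 0.05 was found for 22 members with higher values under emetine (0.719%, against 0.764% of all peaks tested) and for 2 with lower values (0.0654%, against 0.299%). Emetine and control libraries did not overlap, with emetine higher, at 94 members (3.07%, against 2.54% of all peaks and 3.35% of the other coding peaks). They did not overlap with emetine lower at 16 members (0.523%, against 1.43% of all peaks and 1.15% of the other coding peaks). The higher counts lie near the background.

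The distribution as a whole was wide. The median log2 change of the members was 0.41 (quartiles -1.60 and 1.74), with 1694 higher and 1364 lower. It was 0.24 over the other coding peaks, 0.02 over all peaks and -0.17 over 3' UTR peaks. From the authors' deposited ratios, which also divide by the RNA level, the medians were 0.44, 0.24, 0.05 and -0.17. The ratio of scaled read totals was 1.28 for members, 1.17 for the other coding peaks, 1.03 for all peaks and 0.921 for 3' UTR peaks. The median of the members rests on single libraries: it was 0.00 without emetine library 2 or without emetine library 3, with 44.4% and 45.9% of members higher in place of 55.4%. It was 0.78 without emetine library 1, 0.66 without control library 1 and 0.77 without control library 3. Among the 169 members with at least 30 reads the median was 0.74, with 66.9% higher, and among the 275 other coding peaks of that depth it was 0.39.

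At the threshold of the rule, transcripts with 0 3' UTR peaks had a median of 14 reads and a median log2 change of 0.41 per coding peak, and those with 1 had 14 reads and 0.16. With 2 and 3 3' UTR peaks the median change was 0.35 and -0.05. Members of genes with a 3' UTR peak on another transcript had a median of 0.68, and members of the other genes one of 0.30.

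**Figure D3:**
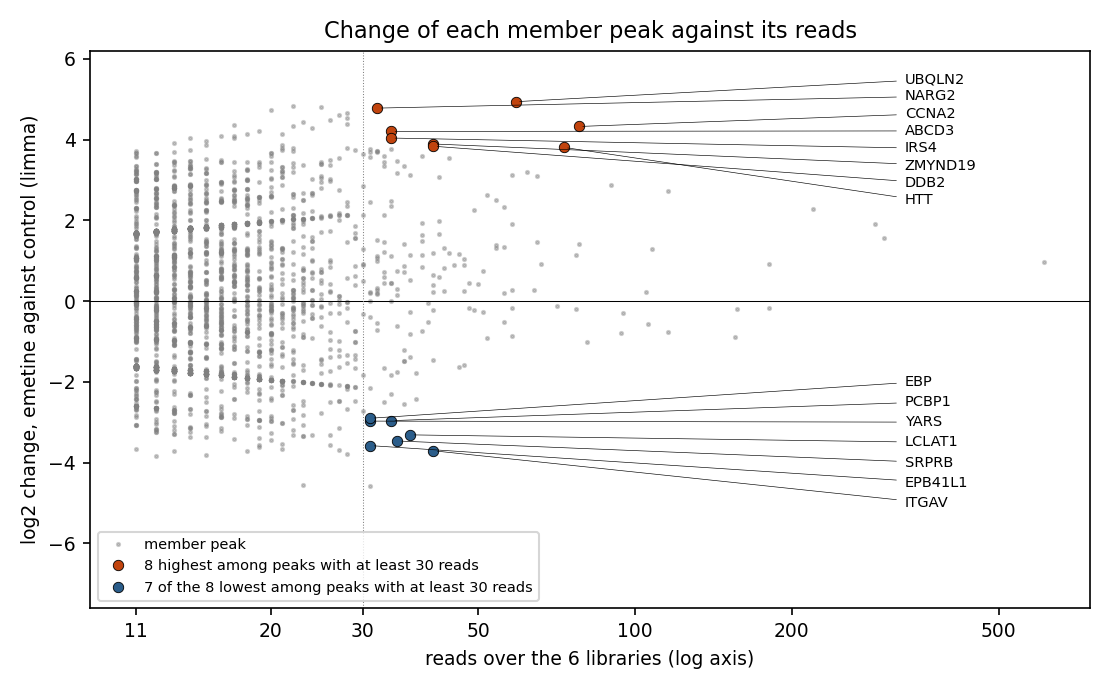
The log2 change with emetine of each member peak (limma, y axis) against its reads over the 6 CLIP libraries (log x axis); coloured points are the 8 highest and 7 of the 8 lowest changes among peaks with at least 30 reads. Changes spread over several log2 units at the smallest read numbers and narrow toward the deepest peak, that of HDGFRP2 with 612 reads.

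The deepest members differed in how the libraries shared their reads. HDGFRP2, a chromatin protein related to hepatoma-derived growth factor, had the peak with most reads (chr19:4494361-4494386, plus strand, hg19, coding sequence). It had 176, 41 and 153 reads in emetine libraries 1, 2 and 3 and 86, 17 and 139 in control libraries 1, 2 and 3. Library 2 was lowest in both treatments, and the treatments overlapped. The ratio of scaled read totals was 1.70 (95% interval 1.44 to 2.01) and the log2 change 0.96 ± 0.97 (SE, limma adjusted p = 0.786). Intervals of this kind cover counting error only, since reads are not independent molecules. On sums over a gene's peaks they can be too narrow even for that, since some reads can be counted more than once. Both libraries numbered 1 together gave 42.8% of the reads of the HDGFRP2 peak, against a median of 6.06% for members with at least 30 reads.

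HIST1H1C encodes the linker histone H1.2, which binds DNA between nucleosomes. Its deepest peak (chr6:26056062-26056112, minus strand, coding sequence) had 18, 86 and 124 reads with emetine and 14, 17 and 42 reads in control. All 3 emetine libraries lay above all 3 control libraries after scaling, with a ratio of 3.47 (95% interval 2.66 to 4.58) and a limma adjusted p of 0.786. Over its 8 member peaks the gene had 44, 143 and 181 reads with emetine and 17, 40 and 64 in control. This sum gave a ratio of 3.38 (95% interval 2.75 to 4.19), and 7 of the 8 peaks had a positive log2 change. Reads of linker histone genes may be shared between near-identical copies, so the assignment to HIST1H1C is uncertain.

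SDHB is the iron-sulfur subunit of succinate dehydrogenase. Its deepest peak (chr1:17355205-17355231, minus strand) had 25, 101 and 90 reads with emetine and 5, 28 and 41 in control. The treatments did not overlap after scaling, and the ratio was 3.24 (95% interval 2.48 to 4.28, limma adjusted p = 0.786). Its other member peaks, which overlap, had 1, 0 and 0 reads with emetine and 0, 10 and 0 in control each. PDCD10, a gene of the cerebral cavernous malformation complex, had a peak (chr3:167405453-167405479, minus strand) with 14, 95 and 53 reads with emetine and 1, 36 and 21 in control. Its treatments did not overlap either, at a ratio of 3.10 (95% interval 2.29 to 4.27). Of its 3 member peaks this was the sole one with a positive log2 change, and summed over them PDCD10 had 14, 99 and 53 reads with emetine and 1, 64 and 21 in control, which overlap after scaling.

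RPS14 encodes a protein of the small ribosomal subunit. Its peak at chr5:149826432-149826486 (minus strand) had 12, 29 and 61 reads with emetine and 4, 3 and 7 in control, the largest ratio among the 12 members with most reads, at 8.10 (95% interval 4.61 to 15.3, limma adjusted p = 0.786). Emetine was higher in all 3 libraries, and its RNA log2 ratio was -0.48. MAP3K4, a kinase upstream of the p38 and JNK pathways, had 2, 47 and 38 reads with emetine and 5, 7 and 9 in control at its peak. Its library 1 went against libraries 2 and 3.

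The remaining deep peaks had overlapping treatments. B3GALT6, a galactosyltransferase of proteoglycan synthesis, had 70, 8 and 40 reads with emetine and 37, 6 and 20 in control, with 59.1% of them in the libraries numbered 1. NOP2, an rRNA methyltransferase, had 37, 15 and 17 reads with emetine and 43, 16 and 29 in control, a ratio of 0.871. FAM96A, which takes part in cytosolic iron-sulfur protein assembly, had 2, 23 and 27 with emetine and 5, 64 and 35 in control, a ratio of 0.556 (95% interval 0.390 to 0.782). In FAM96A each control library had more reads than the emetine library of the same number. TMEM132B had 12, 14 and 12 reads with emetine and 26, 31 and 11 in control. The deepest DICER1 peak had 0, 12 and 53 with emetine and 1, 39 and 11 in control.

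NKX3-2, a homeobox transcription factor gene known from the skeleton, had 26, 18 and 34 reads with emetine and 35, 18 and 50 in control at its single peak (chr4:13544063-13544087, minus strand). Its RNA had 9 reads with emetine and 2 in control. It was 1 of 13 members with at least 30 CLIP reads and under 50 RNA reads. The others with most CLIP reads were in KISS1R, the kisspeptin receptor, with 81 CLIP and 25 and 9 RNA reads, and STK32C, a kinase gene, with 71 CLIP and 6 and 5 RNA reads. RPLP1 and RPL10, ribosomal protein genes with near-identical copies in the genome, also belong to these 13, and their RNA numbers of 11 and 13, and 17 and 9, are uncertain for that reason.

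**Figure D4:**
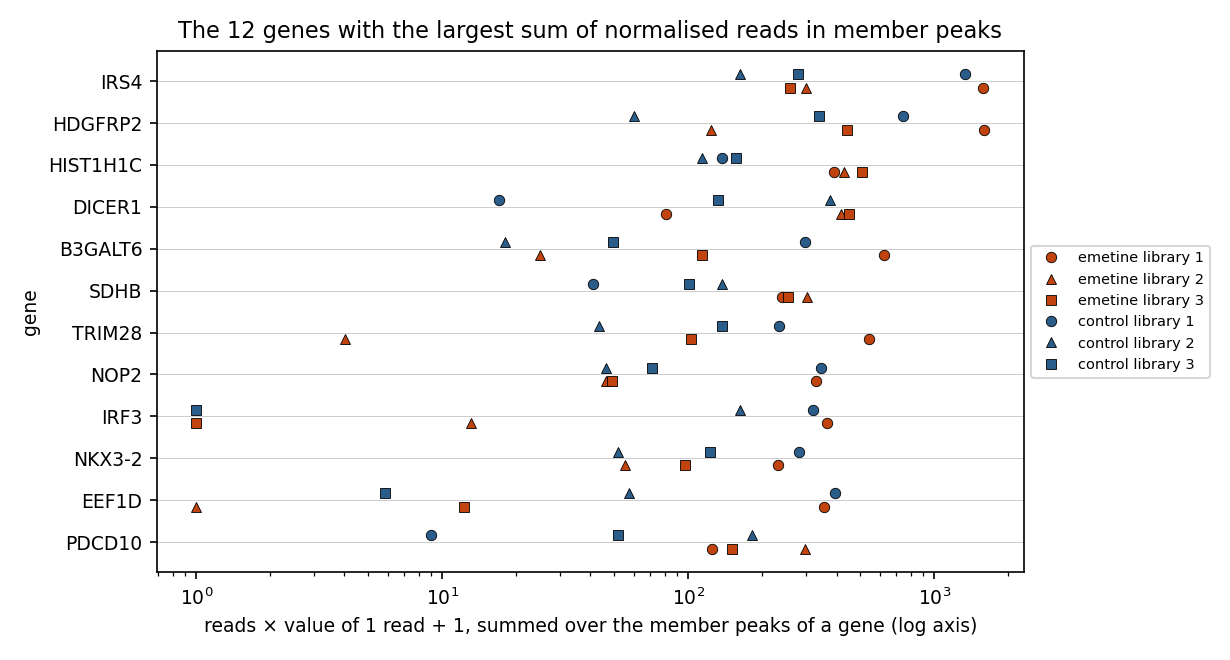
Normalised reads (reads × value of 1 read + 1, log x axis) summed over the member peaks of each of the 12 genes with the largest sums; each point is 1 CLIP library, emetine in red and control in blue. All emetine points lie above all control points for HIST1H1C and SDHB, and library 1 (circles) is the highest emetine library for 8 of the 12 genes: IRS4, HDGFRP2, B3GALT6, TRIM28, NOP2, IRF3, NKX3-2 and EEF1D.

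Summed over a gene, IRS4 had most peaks and most reads. IRS4 encodes an insulin receptor substrate, an adaptor of receptor tyrosine kinases. Its 29 member peaks lay within 3611 nt on chromosome X and had between 11 and 77 reads each. Together they had 177, 100 and 92 reads with emetine and 166, 57 and 115 in control, with 48.5% of all reads in the libraries numbered 1. Log2 changes of its peaks ran from -3.26 to 4.04, with 17 higher and 12 lower, and the summed ratio was 1.21 (95% interval 1.04 to 1.41). Its RNA, at 4199 and 1551 reads, was among the highest of the named genes.

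DICER1 had 9, 138 and 160 reads with emetine and 2, 133 and 54 in control over its 19 peaks, of which 15 had a positive change. The annotated 3' UTR of the transcript on which these peaks were listed is 122 nt long. Whether the bound RNA was that transcript, or one of those with 3' UTR peaks, was not tested. RPN2, a subunit of the oligosaccharyltransferase of the endoplasmic reticulum, had 14 peaks with 14, 47 and 56 reads against 9, 10 and 68 in control. TRIM28, the corepressor that KRAB zinc finger proteins recruit, had 10 peaks with 61, 1 and 36 against 29, 15 and 56. In TRIM28 emetine library 1 held most emetine reads and emetine library 2 held 1. INSIG1 had 13, 44 and 23 reads with emetine against 5, 104 and 50 over its 10 peaks, a ratio of 0.559 (95% interval 0.422 to 0.736). HSPA8, the constitutive HSP70 chaperone, had 8, 45 and 49 against 2, 35 and 27, with 8 of 10 peaks higher.

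IRF3, the transcription factor of the interferon response, and EEF1D, a subunit of the exchange factor of elongation factor 1, drew their reads from few libraries. IRF3 had 41, 4 and 0 reads with emetine and 40, 57 and 0 in control over 7 peaks of 3 transcripts. EEF1D had 40, 0 and 4 with emetine and 49, 20 and 2 in control, with 77.4% in the libraries numbered 1. At 21 of the 169 members with at least 30 reads the libraries numbered 1 held at least 40% of the reads. PTPRF, a receptor tyrosine phosphatase gene, reached 84.6% and a peak of IRS4 reached 93.6%. Whether library 1 bears on the values of these genes was not tested.

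The highest changes among members with at least 30 reads came from peaks with few or no control reads. UBQLN2, a ubiquitin-binding shuttle to the proteasome, had 2, 54 and 3 reads with emetine and 0 in each control library (chrX:56590934-56590961, plus strand). Emetine library 2 gave most of them. With the 0 control reads set to a floor of 3 reads in total, the ratio was 21.9. This ratio is not a lower bound, since the lower limit of the exact binomial 95% interval was 17.2. The log2 change was 4.94 ± 2.02 (SE, limma adjusted p = 0.786). NARG2, now known as a subunit of the little elongation complex, had 1, 14 and 17 reads with emetine and 0 in control. Its ratio with this floor was 11.9 (lower 95% limit 9.09). DDB2, which recognises ultraviolet damage in DNA, had 0, 30 and 11 with emetine and 0 in control. Its ratio with this floor was 15.2 (lower 95% limit 11.8).

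CCNA2 encodes cyclin A2, which drives S phase and entry into mitosis. Its peak had 5, 43 and 24 reads with emetine and 0, 1 and 5 in control, a ratio of 13.3 (95% interval 5.84 to 37.5). All emetine libraries lay above all control libraries. HTT, the gene of huntingtin, had 3, 25 and 36 reads with emetine and 0, 1 and 8 in control, a ratio of 7.90 (95% interval 3.91 to 18.1), again without overlap. ABCD3, a peroxisomal transporter gene, had 3, 27 and 3 with emetine and 0, 0 and 1 in control. A peak of IRS4 had 3, 23 and 7 with emetine and 1, 0 and 0 in control. ZMYND19 had 1, 24 and 13 with emetine and 0, 0 and 3 in control. Of these 8 peaks, 7 had no overlap, DDB2 being the exception, and emetine library 2 held the most reads in 6 of the 8, the exceptions being NARG2 and HTT.

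The lowest changes came from peaks with few or no emetine reads. Of the 8 lowest, 7 are described here. ITGAV, the integrin subunit alpha V, had 0 reads with emetine and 0, 31 and 10 in control. With the emetine reads set to the floor of 3, its ratio was 0.0813 (upper 95% limit 0.105). Its log2 change was -3.71 ± 2.11 (SE, limma adjusted p = 0.786). EPB41L1, a membrane skeleton protein gene of the band 4.1 family, had 0 reads with emetine and 0, 17 and 14 in control. YARS, the tyrosyl-tRNA synthetase, had 0 with emetine and 0, 29 and 2 in control. In ITGAV, EPB41L1 and YARS control library 1 was also at 0.

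SRPRB, the beta subunit of the receptor for the signal recognition particle, had 2, 0 and 0 reads with emetine and 4, 25 and 4 in control. LCLAT1, an acyltransferase that acts on cardiolipin, had 0, 0 and 5 with emetine and 1, 19 and 12 in control. PCBP1, a poly(C) binding protein, had 3, 0 and 0 with emetine and 1, 20 and 10 in control. EBP, a sterol isomerase of cholesterol synthesis, had 0, 0 and 1 with emetine and 0, 17 and 13 in control. Control library 2 held the most reads in all 7 of these peaks, and emetine and control libraries overlapped in each of them. DROSHA, the nuclease that cuts primary microRNA transcripts, was the deepest of the 16 members in which every emetine library lay below every control library, and was picked out after its values were seen. It had 2, 11 and 7 reads with emetine and 5, 17 and 16 in control, a ratio of 0.585 (95% interval 0.322 to 1.03).

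Reads were also summed over the coding peaks of each transcript. In limma over 3835 transcripts, 0 of 1974 member transcripts were called against 0.0261% of all, the 1 called transcript being that of ZNF711, which is no member. An unadjusted p under 0.05 with higher values was found for 29 member transcripts (1.47%, against 1.51% of all) and with lower values for 5 (0.253%, against 0.522%). HIST1H1C had the smallest p, with a log2 change of 1.71 ± 0.56 (SE, limma adjusted p = 0.697). HNRNPM, a splicing regulator, came next with 6, 51 and 27 reads with emetine and 0, 2 and 0 in control. MCM6, a subunit of the replicative helicase, had 6, 81 and 19 reads with emetine and 0, 0 and 22 in control. ARID3A, a DNA-binding protein, had 0 reads with emetine and 7, 14 and 14 in control, at a log2 change of -5.43 ± 2.24 (SE).

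The members were further grouped by 17 lists of genes, chosen with earlier results of these data known. The number of called peaks was 0 in each list, and every list is therefore described by counts and medians, beside the median of 0.41 over all members and 0.02 over all peaks. Lists of the translation machinery are given first. Cytosolic ribosomal proteins, the components of the ribosome itself, had 54 member peaks with reads in 33 genes, of which 39 were higher and 15 lower, with a median of 0.52 (0.93 from the deposited ratios). Members made up 71.8% of the coding peaks of these genes, and the other coding peaks had a median of 1.18. Beside RPS14, RPS6 had 8, 7 and 50 reads with emetine and 1, 10 and 21 in control over 4 peaks, all of them higher. RPLP1 had 1, 39 and 14 with emetine and 7, 4 and 41 in control, with 0 of 4 peaks higher. Reads of ribosomal protein genes may be shared with their pseudogenes.

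Translation initiation, elongation and release factors had 23 peaks higher and 21 lower, with a median of 0.11 (0.30 from the deposited ratios). EIF4G1, the scaffold of the cap-binding complex, had 10, 49 and 22 reads with emetine and 8, 0 and 29 in control over 8 peaks, 7 of them higher. PABPC4, a poly(A) binding protein, had 2, 9 and 26 with emetine and 11, 24 and 2 in control. Aminoacyl-tRNA synthetases had 10 peaks higher and 12 lower, with a median of -0.03 (-0.27 from the deposited ratios). Of these, GARS had 3, 1 and 32 reads with emetine and 0, 12 and 14 in control, IARS had 1, 0 and 27 against 0, 15 and 13, and LARS had 0, 12 and 24 against 0, 12 and 5. Emetine library 3 held the most emetine reads in all 3 synthetases.

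Histone genes had 40 member peaks, 29 higher and 11 lower, with a median of 0.94. The median of the deposited ratios, which divide by RNA, was 0.33. The ratio of scaled read totals was 2.11, and HIST1H1C supplied 368 of the 713 emetine reads. HIST1H2AE went the other way, with 7, 6 and 31 reads with emetine and 12, 43 and 23 in control, a ratio of 0.627 (95% interval 0.423 to 0.919). HIST1H2BG had 9, 4 and 29 against 3, 5 and 31. Within a core histone family the genes are near-identical copies of each other, so reads may be placed on the wrong copy.

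DNA replication genes had 18 peaks higher and 7 lower, with a median of 1.71. Beside MCM6, RRM1, the large subunit of ribonucleotide reductase, had 2, 11 and 61 reads with emetine and 2, 13 and 6 in control. RFC5, a subunit of the clamp loader, had 0, 1 and 22 with emetine and 0, 0 and 13 in control. In each of these 3 genes 1 library held most of the emetine reads. The median over the other coding peaks of the same list was 0.19.

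Heat shock proteins and chaperonins had 27 peaks higher and 10 lower, with a median of 1.70, while the other coding peaks of this list had 1.07. HSPD1, the mitochondrial chaperonin, had 6, 15 and 44 reads with emetine and 0, 33 and 9 in control. TCP1, a subunit of the cytosolic chaperonin, had 5, 15 and 21 with emetine and 1, 0 and 15 in control, a ratio of 2.85 (95% interval 1.56 to 5.44). Proteasome subunits had the lowest median of the 17 lists at -1.17, with 5 peaks higher and 15 lower, while the 12 other coding peaks of proteasome genes had 1.69. PSMA7, a subunit of the core particle, had 0, 0 and 20 reads with emetine and 2, 50 and 0 in control. PSMC5, an ATPase of the regulatory particle, had 3, 0 and 4 with emetine and 1, 16 and 17 in control, a ratio of 0.229 (95% interval 0.0856 to 0.524). PSMD7 had 0, 4 and 19 against 0, 14 and 4.

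**Figure D5:**
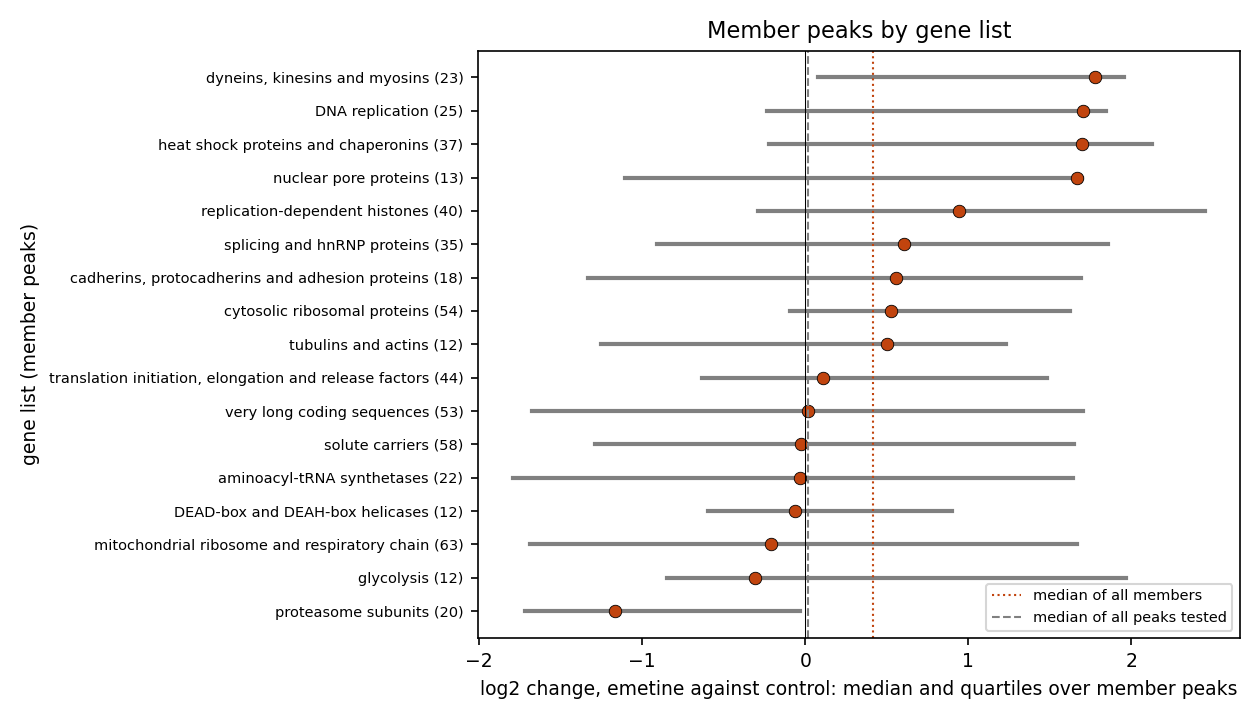
Median (points) and quartiles (bars) of the log2 change with emetine over the member peaks of each of 17 gene lists, with the number of peaks with reads in brackets; lines mark 0 and the medians of all members and of all peaks tested. Quartile ranges of the lists overlap widely, from proteasome subunits at a median of -1.17 to dyneins, kinesins and myosins at 1.78.

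Motor proteins, the dyneins, kinesins and myosins, had 17 peaks higher and 6 lower, with a median of 1.78. The other coding peaks of this list had 1.18. DYNC2LI1, a light intermediate chain of the dynein of cilia, had 0, 42 and 0 reads with emetine and 0 in control over 2 peaks, all from emetine library 2. KIF20B, a kinesin of cell division, had 0, 0 and 1 with emetine and 0, 0 and 33 in control, and MYO18A had 0, 28 and 0 against 2, 0 and 9. Each of the named motor genes thus rested on a single library in at least 1 treatment. Tubulins and actins had 7 peaks higher and 5 lower, with a median of 0.50, while the other coding peaks of this list had 1.77. The genes of this list with most reads were actin-related proteins and a gamma-tubulin complex protein: ACTR3 with 3, 13 and 15 against 1, 18 and 14, TUBGCP3 with 0, 31 and 2 against 5, 11 and 0, and ACTR1B with 14, 0 and 2 against 7, 0 and 0.

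Genes of the mitochondrial ribosome and respiratory chain had 30 peaks higher and 33 lower, with a median of -0.21. Beside SDHB, the cytochrome c oxidase subunit genes COX5B and COX5A had 2, 16 and 13 against 0, 15 and 35, and 2, 22 and 6 against 1, 30 and 7. Glycolysis genes had 5 peaks higher and 7 lower, with a median of -0.31, although the median of the deposited ratios was 1.15. LDHB had 3, 30 and 21 reads with emetine and 3, 19 and 5 in control, and LDHA had 0, 16 and 0 with emetine and 0, 23 and 1 in control. ALDOA, the aldolase of muscle and many other cells, had 0, 26 and 2 with emetine and 7, 14 and 6 in control. Its RNA log2 ratio was -1.61, which enters the deposited ratio.

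Splicing and hnRNP proteins had 21 peaks higher and 14 lower, with a median of 0.61. HNRNPM and SRSF1 lay at opposite ends: all 5 peaks of HNRNPM were higher, while 0 of the 4 peaks of SRSF1 were. SRSF1 had 13, 4 and 2 reads with emetine and 11, 62 and 22 in control, a ratio of 0.222 (95% interval 0.128 to 0.366), while SNRPB had 3, 29 and 18 against 2, 2 and 45. RNA helicases of the DEAD-box and DEAH-box families had 5 peaks higher and 7 lower, with a median of -0.07. DHX15 had 16, 0 and 0 with emetine and 2, 38 and 4 in control, DHX9 had 5, 0 and 0 against 0, 0 and 32, and DHX30 had 0, 12 and 8 against 8, 0 and 1. Helicase genes had the smallest share of members, at 16.9% of their coding peaks.

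Nuclear pore proteins had 9 peaks higher and 4 lower, with a median of 1.67, and NUP155 had 0, 12 and 23 reads with emetine and 1, 5 and 30 in control. NUP98 had 0, 11 and 11 against 0, 20 and 0, and NUPL2 had 5, 6 and 3 against 0, 17 and 0. Cadherins and other adhesion proteins had 12 peaks higher and 6 lower, with a median of 0.56. CELSR1, an adhesion receptor of planar cell polarity, had 15, 13 and 27 reads with emetine and 14, 16 and 20 in control at 1 peak, with reads in all libraries and overlapping treatments. COL4A2, a collagen of basement membranes, had 0, 12 and 10 with emetine and 3, 0 and 8 in control.

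Genes with very long coding sequences, where a ribosome spends longest, had 28 peaks higher and 25 lower, with a median of 0.02. HUWE1, a large ubiquitin ligase, had 3, 56 and 16 reads with emetine and 10, 19 and 14 in control, with 6 of 7 peaks higher. MLL4 and MLL5, of the mixed-lineage leukaemia family, had 7, 28 and 7 against 12, 39 and 10, and 2, 0 and 14 against 0, 69 and 0. Solute carriers had 28 peaks higher and 30 lower, with a median of -0.03, while the median of the deposited ratios was 0.14. SLC4A2, an anion exchanger, had 2, 0 and 24 reads with emetine and 4, 15 and 34 in control. SLC25A5, an ADP/ATP carrier with near-identical relatives, had 2, 12 and 22 against 3, 9 and 16. SLC30A1, a zinc exporter, had 0, 21 and 9 against 0, 38 and 4. In the lists not yet given such a value, the other coding peaks had these medians. They were 1.775 for glycolysis, 0.72 for mitochondrial genes, 0.63 for translation factors, 0.60 for splicing proteins and 0.505 for histones. Very long coding sequences had 0.28, helicases 0.09, solute carriers -0.14, adhesion proteins -0.385, nuclear pore proteins -0.57 and aminoacyl-tRNA synthetases -0.82.

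The RNA of the member genes was measured in 1 library per treatment, so no test could be made. For the 1814 member transcripts with at least 50 RNA reads the median log2 ratio of emetine to control was 0.01 with a SD over transcripts of 0.33, and it was 0.01 over transcripts with other coding peaks. A ratio above 1 was found for 16 member transcripts and one under -1 for 7. Member peaks lay in genes with fewer RNA reads than the other coding peaks. The medians were 296.5 against 486.5 reads in the emetine library and 110 against 193 reads in the control library. Over all peaks they were 303 and 116 reads, near the values of the members, so the other coding peaks were the class that stood apart. These reads are not corrected for length and appear to be counted per gene. Different transcripts of a gene carried the same RNA numbers, such as 78 and 35 for both member transcripts of ABCC10. The RNA values therefore do not separate the member transcript from others of its gene, and genes with several transcripts enter these medians repeatedly.

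The highest RNA ratios were those of MYB, ELL3, 2 histone genes, LAMB2 and RBM7. MYB, a transcription factor of blood progenitors, had 75 and 11 RNA reads, a log2 ratio of 1.41 (95% interval 0.50 to 2.49), and its member peak had 0, 0 and 0 CLIP reads with emetine and 0, 16 and 0 in control. HIST1H1D had 855 and 142 RNA reads, a log2 ratio of 1.24 (95% interval 0.99 to 1.51), and HIST1H2AL had 499 and 81. ELL3 and RBM7 had CLIP reads in 1 emetine library each. The lowest ratios were those of RABAC1, ALDOA, ADCY6, RING1, PABPC1L and CDH24. ALDOA had 854 and 1027 RNA reads, and its interval ran from -1.74 to -1.48. RABAC1, a prenylated Rab acceptor, had 23 and 29 RNA reads, a log2 ratio of -1.66 (95% interval -2.54 to -0.84), while its CLIP reads were 14, 24 and 18 with emetine and 3, 1 and 7 in control. In this gene the RNA and the CLIP values thus lay on opposite sides. ADCY6, RING1 and CDH24 had 0 CLIP reads with emetine and 12, 21 and 19 in control.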

How the data were processed

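Ago2 CLIP (6 libraries) and RNA-seq (2 libraries) of 293S cells were compared by treatment. Before deposit the authors normalised the values and took their logarithm, giving per the file headers an average and a ratio of emetine to control, which are read here as deposited natural logarithms, ln (the base is unstated). The submitters' processing notes list TopHat, DESeq, Bowtie 0.12.8 and the build hg19, without their roles. The peak caller is not given in the sources used here. Positions appear as the table lists them.

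Adding or subtracting 0.5 times the ratio gives 1 value per treatment, which equals the mean over 3 CLIP libraries of ln(1 + scaled reads), less ln(1 + scaled RNA reads). Factors and whole reads meeting this within 1.5e-14 (1.2e-13 for values of 10 and more) were searched, and 22382 of 22506 peaks had a unique solution. When values were shifted by 1e-05, a solution was still found for 55 (emetine) and 26 (control) of 2186 peaks. The recovery and the test were checked on data with known answers. The labels carry no replicate numbers.

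The test was limma 3.58.1 (R 4.3.3) (trend option) on log2(scaled reads + 1) of all peaks, emetine against control, Benjamini-Hochberg at 0.05. Ratios are of read totals scaled by summed inverse factors with exact binomial 95% intervals; 0 reads were set at a floor of 3 over the 3 libraries. Library values used exact permutation tests (scipy 1.17.1, Python 3.11.15). Lengths came from GENCODE 29. Named were the 12 genes with the largest summed normalised reads, the 8 highest and 8 lowest changes among peaks with at least 30 reads (1 per gene; 1 of these is not reported here), the 6 genes with most peaks, up to 3 genes per list and the 6 highest and 6 lowest RNA ratios with at least 50 reads. The 12 peaks with most reads, the transcripts with the smallest p, and KISS1R, STK32C, RPL10, PTPRF and DROSHA were picked out after their values were seen. Members and lists were chosen with earlier results of these data known. Alternatives covered scaling, the added constant, a filter, limma-voom, depth class, membership and each library left out.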

Additional observations from a re-analysis of the deposited data

How the results depend on the processing

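The number of called members was 0 under all 17 alternatives, the 6 fits without 1 library included (lowest 0, highest 0), while the count at an unadjusted p under 0.05 ran from 18 with membership by gene symbol to 73 with the depth class (library number) as a block or without the shallowest library of each treatment, against 22 higher and 2 lower as reported; limma-voom gave 66. With that block 2 of all peaks were called, neither a member. Summed per transcript, 0 member transcripts were called in all 9 alternatives run. The median log2 change of the members was 0.81 with reads in at least 3 libraries (fewer peaks tested), and 0.00 to 0.78 when 1 library was left out. The sign of the difference in the share of coding reads (1.08 to 2.45 percentage points), the share of all peak reads (0.577 to 3.76) and the level against other coding peaks (0.03 to 0.27) was positive in every alternative, the ranges including those without 1 library, and p ran from 0.1 to 1. The median RNA log2 ratio ran from 0.01 to 0.02. None of the 16 highest and lowest peaks reversed. No analysis paired by antibody was run, because the read numbers were not assigned to antibodies. The block above pairs libraries by their number alone, that is by the value of 1 read. Libraries of the same number also had similar shares of reads in noncoding exons. Depth limits single members, whose median is 14 reads.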
